A study of Mus musculus with 13 samples.

Results

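The genes described here are 43 genes of the cell cycle and of DNA replication, 18 that act in DNA replication and the passage into S phase and 25 that act in mitosis and cell division. They were chosen by symbol and matched through their Ensembl identifiers (GRCm38), and all 43 were found once each among the 49315 genes counted. All 43 also passed the filter on low counts, as did 16496 genes in total. They were followed in RNA sequencing libraries of mouse skeletal muscle in 4 groups: 3 libraries of systemic miR-181a2b2 knockouts on the HFSC diet (HFSC KO), 4 of mice homozygous for the floxed locus on HFSC (HFSC flox), 3 of knockouts on chow (chow KO) and 3 of floxed homozygotes on chow (chow flox). The floxed homozygotes are called WT in the sample titles, so the animals set against the knockouts carry the floxed allele and are not plain wild type. The knockout is systemic, so it is not limited to muscle cells, and the labels do not spell out HFSC. They mention hindlimb ischemia for the study without saying which limb was taken or when, and give no ages. White adipose tissue is the tissue written in the extraction protocol, although every source label reads skeletal muscle. The labels do not tie libraries to separate animals, so the p-values reflect spread among libraries, some of which may be technical.

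Before a cell divides, the MCM helicase is loaded onto replication origins by Cdc6 and Cdt1, the sliding clamp Pcna and ribonucleotide reductase support DNA synthesis, and E2F factors with cyclin E drive entry into S phase. Cyclins A and B with Cdk1 then drive mitosis, in which condensed chromosomes attach to the spindle, the checkpoint kinases delay separation until attachment is complete, and a contractile ring splits the cell. Mature muscle fibres do not divide. Dividing cells in muscle are known to be mainly satellite cells and their progeny, fibroblast-like cells, endothelial cells and blood-derived cells after injury. Replication genes are known for E2F sites in their promoters and mitosis genes for a pair of elements, the cell cycle genes homology region (CHR) and NF-Y boxes.

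The libraries held 20830943 to 45710227 counts, with a median of 29011060. Values are CPM (each gene's reads as a share of its library, so that libraries of different depth can be compared) with library sizes scaled by TMM, the trimmed mean of M values. A count of 0 allows up to 3 counts, which is 0.0633 to 0.152 CPM in these libraries, and such floors cover counting error only. The 10 myofibre markers summed to between 106796 and 241422 CPM in every library, so the labelled tissue was matched by its markers. Chow flox replicate 4 stood apart from its group. On the first principal component of log2 CPM, with 50.7% of the variance, it lay at 51.3, beside chow KO at 51.8 to 88.6, while the other 9 libraries lay between -67.8 and -13.3. Of the 43 genes, 36 were lower in chow flox replicate 4 than in chow flox replicates 2 and 3. In 41 of the 43 genes it was nearer to the mean of chow KO than to that of chow flox replicates 2 and 3, and in 22 it lay within the chow KO range.

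Per kilobase of exon and averaged over 13 libraries, Pcna had the highest level of the 43 genes at 8.51 CPM per kilobase and Rrm1, the large subunit of ribonucleotide reductase, was next at 3.34. Cenpf, a large kinetochore protein, had the lowest at 0.0936 CPM per kilobase. Some genes hardly varied. The highest group mean was 1.16 times the lowest for the helicase subunit Mcm7, 1.18 times for Pcna and 1.19 times for Rrm1. At the other end it was 31.0 times for Cdk1, the kinase that drives entry into mitosis, 16.4 times for Ccnb1, its cyclin B1 partner, and 15 times for Top2a, the topoisomerase that untangles chromosomes. For all 3 of these chow KO was the lowest group. The chow KO means of Cdk1 and Ccnb1, 0.0588 and 0.0618 CPM, came from 0 to 4 and 1 to 3 reads per library. Both lie under the level of 3 counts in these libraries, 0.102 to 0.129 CPM, so their ratios are uncertain.

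**Figure D1:**
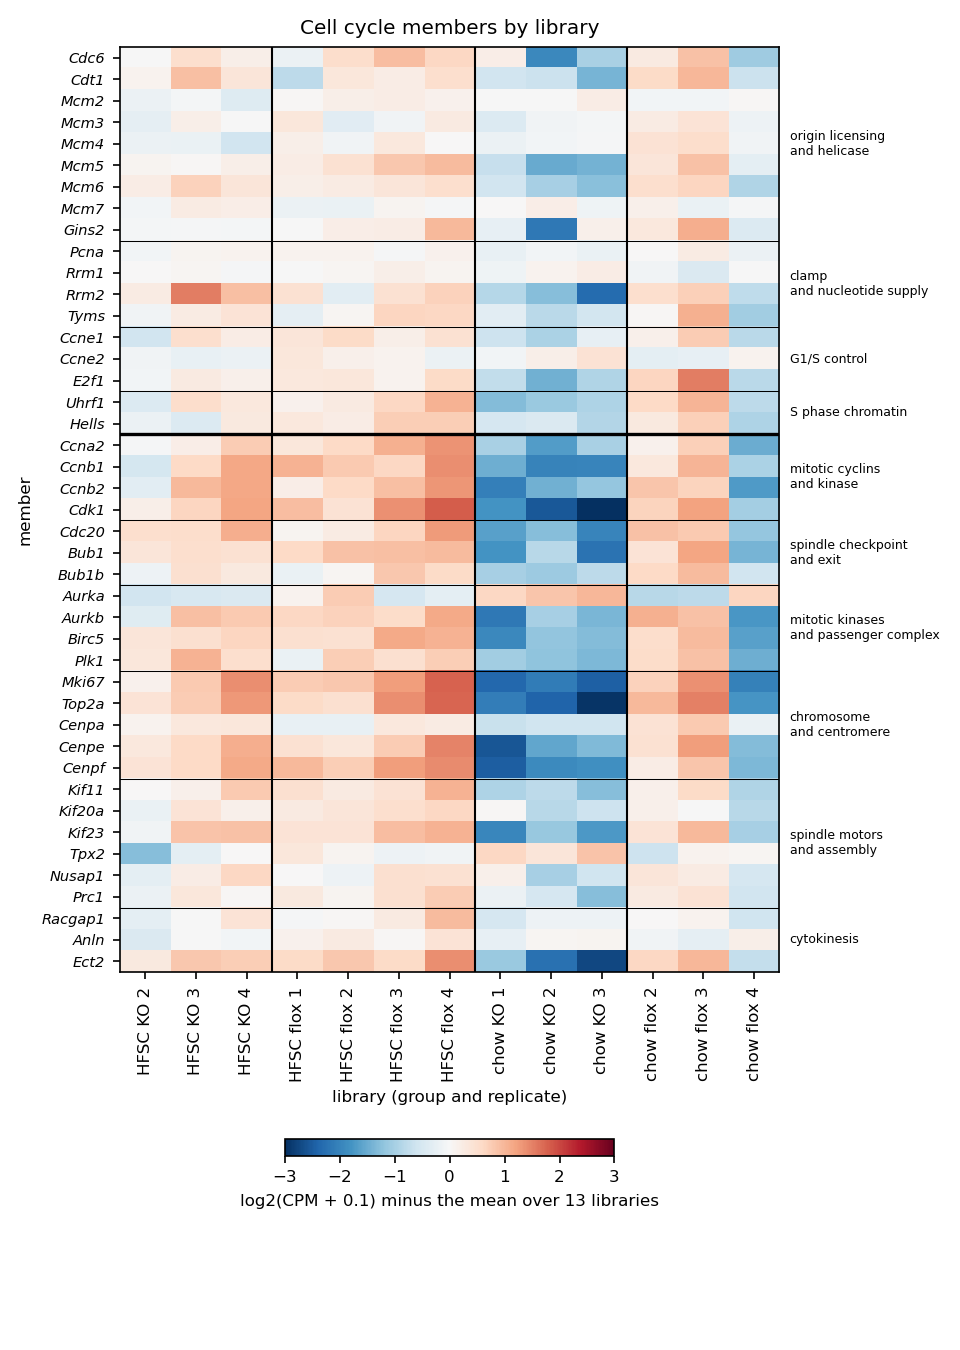
Level of each of the 43 genes (rows, grouped by role, replication above the thick line and mitosis below) in each of the 13 libraries (columns). Colour is log2(CPM + 0.1) minus the gene's mean over 13 libraries; the chow KO columns and chow flox replicate 4 are blue for most mitosis genes, whereas Aurka and Tpx2 run the other way in chow KO.

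To ask how the mitosis genes compare with the replication genes, the mean log2 CPM of each list was taken in every library relative to the mean of all 13 libraries. The 25 mitosis genes stood at -0.03, 0.49 and 0.70 in HFSC KO and at 0.39, 0.46, 0.70 and 1.02 in HFSC flox. They stood at -1.27, -1.20 and -1.38 in chow KO, and at 0.40, 0.73 and -1.01 in chow flox. The chow KO libraries were thus the lowest 3, with chow flox replicate 4 next to them. The 18 replication genes stood at -0.09, 0.28 and 0.15 in HFSC KO and at 0.09, 0.17, 0.35 and 0.47 in HFSC flox. They stood at -0.41, -0.79 and -0.59 in chow KO, and at 0.27, 0.61 and -0.51 in chow flox. For this list replicate 4 of chow flox was inside the range of chow KO. The replication list therefore had the same lowest 4 libraries as the mitosis list, over a narrower span. In chow KO the replication level was above the mitosis level in each library, by 0.41 to 0.86, and in chow flox replicate 4 by 0.50. In the other 9 libraries it was below it, by 0.06 to 0.56. These levels are descriptions of the lists and carry no test.

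**Figure D2:**
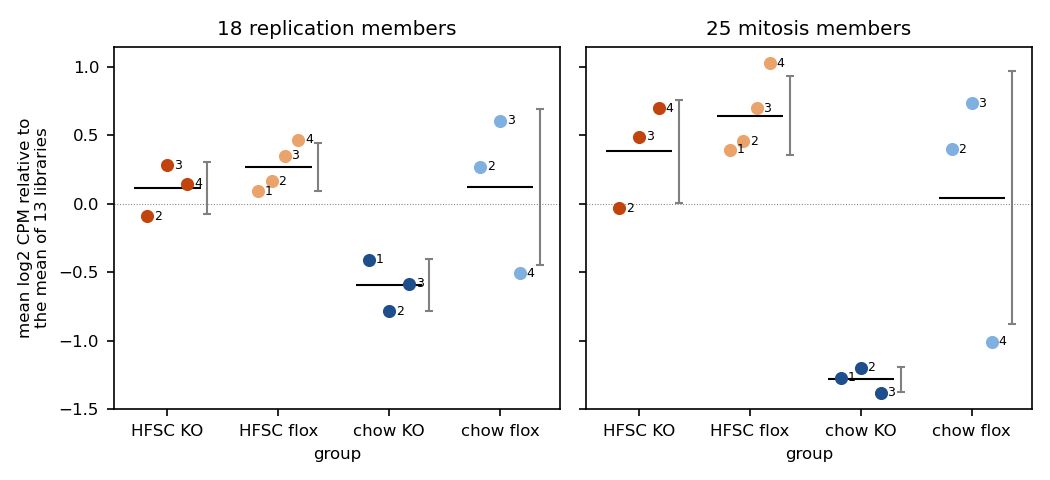
Mean log2 CPM of the 18 replication genes (left) and the 25 mitosis genes (right), relative to the mean of 13 libraries (vertical axis), in each group; points are libraries with their replicate number, black lines group means and grey bars 1 SD either side. The chow KO libraries lie at -1.38 to -1.20 for the mitosis genes and at -0.79 to -0.41 for the replication genes.

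Chow KO was compared with chow flox to ask what loss of miR-181a2b2 did on chow. Lower in chow KO were 13 of 25 mitosis genes, among them all 5 of chromosome and centromere, all 3 of the spindle checkpoint and exit, and Ccnb1 with Cdk1. The other 12 mitosis genes did not pass, and 5 of 18 replication genes were lower. Of the 43 genes, 18 were lower in chow KO and 0 higher (41.9% lower), at an adjusted p under 0.05 in edgeR's quasi-likelihood test with Benjamini-Hochberg adjustment over all tested genes. Over all 16496 genes, 10.1% were lower and 1.38% higher. The median log2 fold change was -2.23 for the mitosis list, -0.94 for the replication list and -0.01 over all tested genes. In bulk tissue, fewer dividing cells and less RNA per cell cannot be told apart.

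Among the genes of chromosome and centromere, all 5 were lower. Mki67, the proliferation marker that coats mitotic chromosomes (chromosome 7, 135689784 to 135716361), had 0.648, 0.799 and 0.603 CPM in chow KO, against 6.09, 9.86 and 0.838 CPM in chow flox. The groups did not overlap, but chow flox replicate 4 was nearly as low as chow KO. The log2 fold change of Mki67 was -3.04 ± 0.69 (SE; edgeR, adjusted p = 0.0215). Top2a (chromosome 11, 98992943 to 99024189) had 0.478, 0.36 and 0.215 CPM in chow KO, against 4.63, 6.81 and 0.610 CPM in chow flox, a log2 fold change of -3.49 ± 0.73 (edgeR, adjusted p = 0.0189). Again replicates 2 and 3 of chow flox were high and replicate 4 low. The kinetochore genes Cenpf (-2.77) and Cenpe (-2.72), a kinesin that moves chromosomes along the spindle, were lower as well. Cenpa, the histone H3 variant of centromeres, differed less, with 2.38 ± 0.0817 CPM in chow KO and 4.90 ± 1.62 CPM in chow flox (SD, n = 3 each; log2 fold change -1.05 ± 0.25).

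Of the cyclins and kinase of mitotic entry, 2 of 4 were lower. Cdk1 (chromosome 10, 69335146 to 69352938) had 0.136, 0.0400 and 0 CPM in chow KO, against 1.21, 1.79 and 0.305 CPM in chow flox. Its log2 fold change of -4.06 ± 0.83 (edgeR, adjusted p = 0.0188) rests on 5 reads in the chow KO libraries together and 124 in chow flox. Ccnb1 also had 5 reads in chow KO, against 68 in chow flox, at -3.2 ± 0.76. Ccnb2, cyclin B2, at -2.40, and Ccna2, cyclin A2, at -1.37, did not pass (edgeR, adjusted p = 0.0587 and 0.0957). The 3 genes of the checkpoint and mitotic exit were lower: Cdc20, the activator of the anaphase-promoting complex (-2.62), and the checkpoint kinases Bub1 (-2.98, from 5 reads in chow KO and 59 in chow flox) and Bub1b (-1.55).

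The kinases and motors were mixed. Birc5, survivin of the chromosomal passenger complex, was lower at -2.23 ± 0.62, while its kinase partner Aurkb (-2.65, edgeR, adjusted p = 0.0506) and Plk1, the polo-like kinase (-1.88, adjusted p = 0.0587), did not pass. Of 6 spindle genes, the motor Kif23 of the central spindle was lower (-2.24 ± 0.53). The spindle motors Kif11 (-1.14) and Kif20a (-0.28) and the microtubule-associated Prc1 (-0.72) and Nusap1 (-0.51) did not pass. Of 3 cytokinesis genes, Ect2, the exchange factor that activates RhoA for the contractile ring, was lower at -3.18 ± 0.71. Its 7 reads in chow KO stood against 91 in chow flox. Anln, a ring scaffold, and Racgap1, the partner of Ect2, had log2 fold changes of 0.03 and -0.15.

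Among replication genes, 2 of 9 in origin licensing and the helicase were lower. Mcm5 had 0.921, 0.479 and 0.517 CPM in chow KO, against 2.03, 2.94 and 1.26 CPM in chow flox, and the groups did not overlap (-1.69 ± 0.35; edgeR, adjusted p = 0.0189). Mcm6 had 3.44, 2.56 and 2.11 CPM in chow KO, against 7.40, 8.07 and 2.71 CPM in chow flox, where replicate 4 lay inside the chow KO range (-1.16 ± 0.33; edgeR, adjusted p = 0.0407). The other 4 subunits of the same helicase did not pass, with log2 fold changes of 0.11 for Mcm2, -0.38 for Mcm3, -0.41 for Mcm4 and 0.06 for Mcm7. Nor did the loaders Cdc6 (-1.10) and Cdt1 (-1.43) or Gins2 of the active helicase (-1.20). Of 4 genes of the clamp and nucleotide supply, Rrm2, the small and cell-cycle-regulated subunit of ribonucleotide reductase, was lower at -1.69 ± 0.46. Pcna (-0.21), Rrm1 (0.24) and the thymidylate synthase Tyms (-0.90) did not pass. E2f1, the activator of S phase genes, was lower (-1.93 ± 0.49), as was Uhrf1, which carries DNA methylation through replication (-1.80 ± 0.48). The cyclin E genes Ccne1 (-0.97) and Ccne2 (0.34) and the chromatin remodeller Hells (-0.87) did not pass.

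**Figure D3:**
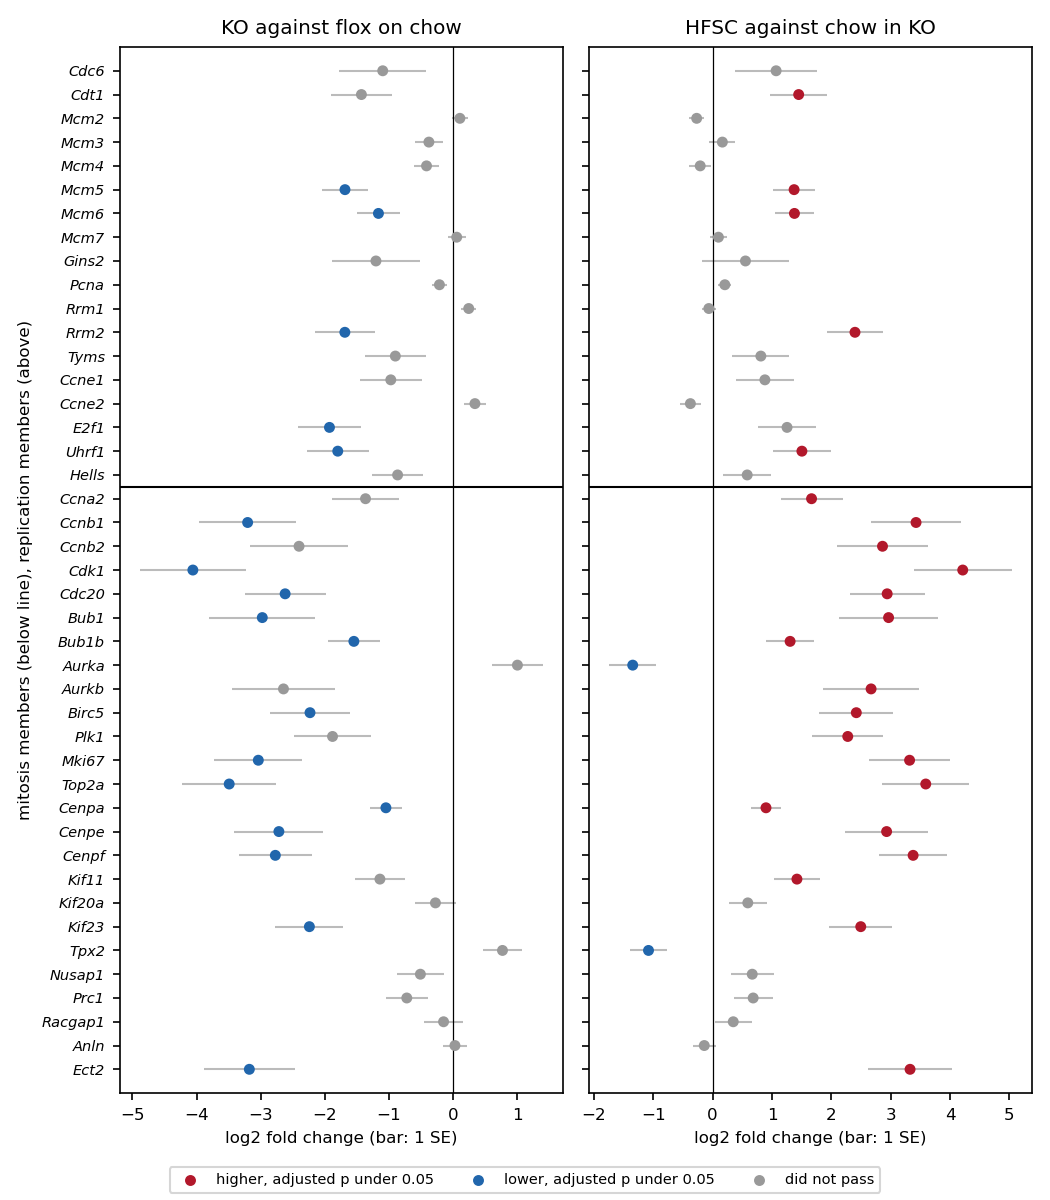
Log2 fold change of each of the 43 genes (points, with bars of 1 SE) for KO against flox on chow (left) and HFSC against chow in KO (right), replication genes above the line and mitosis genes below it. Blue points are lower and red points higher at an adjusted p under 0.05, and grey points did not pass: 18 are blue on the left, and 23 are red and 2 blue on the right.

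In 14 of the 43 genes (32.6%) all chow KO libraries lay below all chow flox libraries, beside 13.9% of all tested genes. In 1 (2.33%), Tpx2, all lay above, beside 10.9% of all tested genes. The number of calls on chow changed strongly when single libraries were left out. Without chow flox replicate 4, 30 of the 43 genes were lower and 3 higher (76.7%), in a fit that called 42.8% of all tested genes. The total was 4 when chow flox replicate 2 was left out, with 2.68% of all tested genes called, and 0 when replicate 3 of that group was. Leaving out chow KO replicate 1 gave 7, with 5.48% of all tested genes called, and leaving out either of the other chow KO libraries gave 0. In the 3 fits with 0 of the 43 no gene at all was called. The median log2 fold change of the mitosis list was still -1.77 without chow flox replicate 3. It was -2.46 and -2.15 without chow KO replicates 2 and 3. For the replication list it was -0.51, -0.70 and -0.90 in these fits. No gene passed in all 13 fits that leave out 1 library, and the most any gene reached was 10 (Mcm5, Cdk1, Top2a and Cenpf). With only the chow libraries in the fit, 30 of the 43 passed the filter on low counts and 0 of these 30 were called, as 2 of 15268 tested genes were.

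Low genes carried many of the calls. Split at the median of the genes' mean level, 1.65 CPM, 6 of the upper 22 genes were lower in chow KO, with a median log2 fold change of -0.40, and 12 of the lower 21, with a median of -2.23. The upper genes were 10 replication and 12 mitosis genes, and the lower ones 8 and 13. The highest levels, those of Rrm1, Pcna, Mcm7, Mcm2, Ccne2, Mcm4 and Rrm2, belonged to replication genes. The mean level includes the chow KO libraries, so a low chow KO level enters the split. The part of level was not tested apart from the list. In chow KO, 5 of the 43 genes had fewer than 10 reads over 3 libraries and 12 fewer than 20.

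Markers of several other cell types were also lower in chow KO, where 10.1% of all tested genes were lower. All 12 fibroblast and matrix markers, 14 of 15 monocyte and macrophage markers, 5 of 8 tested lymphocyte markers and 3 of 11 endothelial markers were lower in chow KO (edgeR). The fibroblast markers summed to 456 to 727 CPM in chow KO and 1449 to 7936 CPM in chow flox, and the macrophage markers to 47.4 to 85.4 and 123 to 1101 CPM in the same groups. The lymphocyte markers summed to 1.51 to 1.6 CPM in chow KO and 1.75 to 10.9 CPM in chow flox. Chow flox replicate 4 gave the lowest chow flox sum in each of these 3 lists. Of 8 smooth muscle and pericyte markers, 2 were lower. None of the 12 markers of muscle stem cells and myoblasts passed, nor any of 10 myofibre, 8 adipocyte and 5 tested erythroid markers or the 1 tested neutrophil marker. By sign, 9 of 10 myofibre and 4 of 5 erythroid markers were positive. Negative were 9 of 12 stem cell and myoblast markers and 8 of 8 adipocyte markers. The neutrophil genes Elane, Ly6g and Mpo had at most 1 read in any library. The part of these other cell types in the lower cell cycle levels was not tested.

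On HFSC, KO was compared with flox in the same way, and no cell cycle gene passed. Of the 43 genes, 0 were higher and 0 lower in edgeR, against 0.0182% higher and 0.0% lower over all tested genes. DESeq2 and limma voom also called 0 of the 43, where they called 0.903% and 0.200% of all tested genes. An unadjusted p under 0.05 in edgeR was reached by 3 of the 43, beside 1721 of all 16496 tested genes. The median log2 fold change was -0.29, and 35 of 43 were negative (81.4%), beside 0.0035 and 49.4% over all tested genes. In 6 genes, Mcm2, Mcm4, Mcm5, Gins2, Bub1 and Anln, all HFSC KO libraries lay below all HFSC flox libraries, as in 5.31% of all tested genes. Mcm2, a helicase subunit, had the smallest p: it had 8.63, 9.24 and 7.36 CPM in HFSC KO, against 9.93, 11, 11.3 and 10.7 CPM in HFSC flox (-0.35 ± 0.11; edgeR, adjusted p = 0.320). Mcm4 (-0.42 ± 0.18) and Anln (-0.40 ± 0.18) came next (edgeR, adjusted p = 0.444 and 0.477). Mki67 had 4.12, 6.49 and 9.97 CPM in HFSC KO, against 6.42, 6.64, 9.09 and 13 CPM in HFSC flox. The ranges of Mki67 overlapped.

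The diet was then examined in each genotype. In flox, none of the 43 genes passed for HFSC against chow in edgeR, against 0.115% higher and 0.303% lower over all tested genes. DESeq2 called 0 of the 43 and 2.38% of all tested genes. In edgeR 3 of the 43 had an unadjusted p under 0.05, beside 2105 of all 16496 tested genes. Limma voom called 6 of the 43 (14%), below its share of 25.1% over all tested genes. The median log2 fold change was 0.25, beside -0.01 over all tested genes. The smallest p belonged to Cenpf, with 2.35 ± 0.501 CPM in HFSC flox (SD, n = 4) and 1.16 ± 0.791 CPM in chow flox (SD, n = 3; log2 fold change 1.0 ± 0.42; edgeR, adjusted p = 0.346). Rrm1 (0.25 ± 0.11) and Kif20a (0.63 ± 0.29) followed (edgeR, adjusted p = 0.379 and 0.389). Kif20a was the single gene of the 43 (2.33%) whose HFSC flox libraries all lay above the chow flox ones, beside 4.26% of all tested genes. Without chow flox replicate 4 its log2 fold change was 0.39 and that of Cenpf 0.60.

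In KO, 18 of 25 mitosis genes and 5 of 18 replication genes were higher on HFSC than on chow, and 2 mitosis genes, Aurka and Tpx2, were lower. Of the 43 genes, 23 were higher (53.5%) and 2 lower (4.65%), against 14.9% higher and 10.6% lower over all tested genes (edgeR). The median log2 fold change was 2.42 in the mitosis list, 0.70 in the replication list and 0.02 over all tested genes. In 28 of the 43 genes (65.1%) the HFSC KO libraries all lay above the chow KO ones, beside 26.8% of all tested genes. In 4 (9.3%; Aurka, Tpx2, Mcm2 and Ccne2) all lay below, beside 23.8% of all tested genes. This comparison uses the same 3 chow KO libraries as the one on chow, so a low chow KO level enters both and their values are given side by side only. Of the 18 genes lower in chow KO than in chow flox, 17 were also higher in HFSC KO than in chow KO, the exception being E2f1 (1.25 ± 0.50; edgeR, adjusted p = 0.0773).

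By role, all 5 chromosome and centromere genes, all 4 mitotic cyclins and their kinase and all 3 checkpoint and exit genes were higher in HFSC KO. Cenpf had the smallest p, with 1.40, 1.61 and 2.39 CPM in HFSC KO, against 0.102, 0.200 and 0.215 CPM in chow KO (3.38 ± 0.57; edgeR, adjusted p = 0.00328). Cdk1 had 0.823, 1.18 and 1.75 CPM in HFSC KO, against 0.136, 0.0400 and 0 CPM in chow KO (4.21 ± 0.83; edgeR, adjusted p = 0.00587), from 108 and 5 reads. The Mki67 levels of HFSC KO given above stood against 0.603 to 0.799 CPM in chow KO (3.32 ± 0.69), and Top2a reached 3.11, 4.03 and 5.89 CPM in HFSC KO (3.59 ± 0.73). In none of these 4 genes did the groups overlap. Ccnb1 (3.43), Cenpe (2.93), Cdc20 (2.94), Bub1 (2.97), Ccnb2 (2.86), Ccna2 (1.67), Bub1b (1.31) and Cenpa (0.90) were also higher. So were Birc5 (2.42), Aurkb (2.67) and Plk1 (2.28) among the kinases and passenger genes, Kif23 (2.5) and Kif11 (1.42) among the spindle genes, and Ect2 (3.33) in cytokinesis. Kif20a, Nusap1, Prc1, Racgap1 and Anln did not pass, with log2 fold changes of -0.14 to 0.68.

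Among replication genes, Rrm2 had 5.58, 13.8 and 8.86 CPM in HFSC KO, against 2.56, 1.88 and 0.862 CPM in chow KO (2.40 ± 0.47; edgeR, adjusted p = 0.00577). HFSC KO was the highest group for Rrm2, at 9.41 ± 4.14 CPM beside 6.07 ± 1.65 CPM in HFSC flox (SD, n = 3 and 4), a pair of groups that did not pass. Mcm6 (1.38 ± 0.33), Mcm5 (1.37 ± 0.36), Cdt1 (1.45 ± 0.48) and Uhrf1 (1.5 ± 0.49) were higher as well. The other 13 did not pass, and Mcm2, Mcm3, Mcm4, Mcm7, Pcna and Rrm1 had log2 fold changes between -0.27 and 0.21. Of the 25 calls, 10 held in each of the 13 fits that leave out 1 library (Rrm2, Ccnb1, Cdk1, Cdc20, Mki67, Top2a, Cenpe, Cenpf, Kif23 and Ect2). The total fell to 14, 15 and 10 without chow KO replicates 1, 2 and 3, and to 15 and 13 without HFSC KO replicates 3 and 4. The share called over all tested genes was 25.5% with all libraries, and 16.7%, 12.5%, 8.58%, 16.8% and 10.6% in these 5 fits in the same order. Fibroblast and macrophage markers were higher in the same comparison, 12 of 12 and 11 of 15. Their sums were 2991 to 3593 CPM and 238 to 297 CPM in HFSC KO, against the chow KO sums given above. Of 11 endothelial markers, 9 were higher and 1 lower, and 4 of 8 tested lymphocyte, 5 of 8 adipocyte, 5 of 5 tested erythroid and 4 of 8 smooth muscle markers were higher. Of 12 muscle stem cell markers 1 was higher and 1 lower, and 2 of 10 myofibre markers were higher. Over all tested genes 14.9% were higher and 10.6% lower. The part of these cell types was not tested here either.

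Aurka and Tpx2 are singled out because they ran against the other mitosis genes, and were chosen after their values were seen. Aurka encodes the Aurora A kinase of the spindle poles and Tpx2 the protein that binds and activates it on the spindle. Aurka (chromosome 2, 172356190 to 172370535) had 3.01, 3.21 and 3.36 CPM in HFSC KO, against 7.03, 8.15 and 9.22 CPM in chow KO. It had 4.90, 7.75, 3.16 and 3.69 CPM in HFSC flox, and 2.5, 2.59 and 7.20 CPM in chow flox. Chow KO and chow flox replicate 4 were high, as was HFSC flox replicate 2, and these same chow libraries were low in Mki67. HFSC against chow in KO gave -1.35 ± 0.40 for Aurka (edgeR, adjusted p = 0.0289), and KO against flox on chow gave 1.0 ± 0.39, which did not pass (adjusted p = 0.103). Without chow flox replicate 4, Aurka was higher in chow KO at 1.68 (edgeR, adjusted p = 0.00111, against 0.0857 to 0.370 without any other 1 library).

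Tpx2 (chromosome 2, 152847964 to 152895321) had 1.25, 2.59 and 3.22 CPM in HFSC KO, against 4.98, 4.12 and 5.86 CPM in chow KO. It had 4.09, 3.39, 2.86 and 2.96 CPM in HFSC flox, and 2.05, 3.42 and 3.32 CPM in chow flox. Here chow flox replicate 4 stayed with its group, unlike for Aurka. HFSC against chow in KO gave -1.08 ± 0.31 for Tpx2 (edgeR, adjusted p = 0.0263), and KO against flox on chow 0.77 ± 0.31, which did not pass (adjusted p = 0.108). With 1 library left out, the lower call in HFSC KO held in 8 of 13 fits for Aurka and in 9 of 13 for Tpx2. Aurka lost it without chow KO replicate 2 or 3 or any HFSC KO library, and Tpx2 without chow KO replicate 1 or 3 or HFSC KO replicate 2 or 3. When plain library totals replaced the TMM factors, which put the median of all genes at 0.21, Tpx2 was at -0.89 and did not pass (edgeR, adjusted p = 0.0810).

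**Figure D4:**
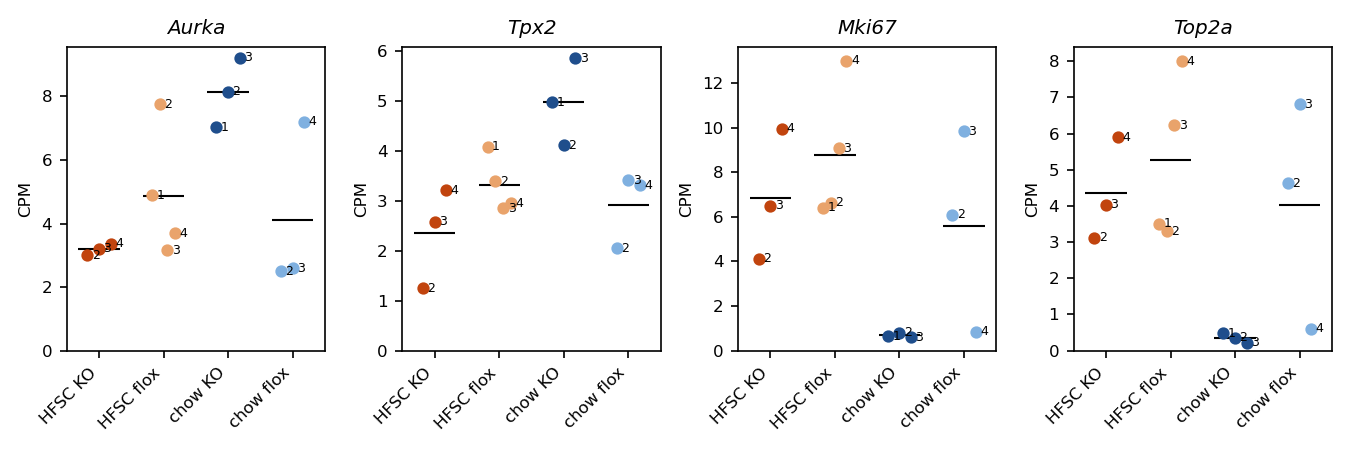
CPM of Aurka, Tpx2, Mki67 and Top2a in each library (points with replicate numbers) by group, with group means as black lines. Aurka and Tpx2 are highest in chow KO, at 7.03 to 9.22 and 4.12 to 5.86 CPM, where Mki67 and Top2a are lowest.

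Whether the effect of genotype differed between the diets was tested by the interaction of genotype and diet. None of the 43 genes passed in edgeR, as 0.0% of all tested genes were higher and 0.0% lower. An unadjusted p under 0.05 was reached by 8 replication and 18 mitosis genes in edgeR, beside 4811 of all 16496 tested genes. DESeq2 called 12 of the 43 (27.9%) and 11.7% of all tested genes, and limma voom 26 (60.5%) and 42.8%. The median interaction was 0.63 for the replication list and 2.09 for the mitosis list on the log2 scale, beside 0.04 over all tested genes. Rrm2 had the smallest p, at 2.31 ± 0.61 (edgeR, adjusted p = 0.0720), followed by Cenpa at 1.25 ± 0.33 (adjusted p = 0.0740) and Top2a at 3.2 ± 0.91 (adjusted p = 0.0776). Without chow flox replicate 4 the count was 27 (62.8%), with 23 positive and 4 negative, while 34.9% of all tested genes were called. So the 18 calls on chow and the 0 calls on HFSC are not shown to differ in edgeR with all 13 libraries. The other 2 methods differed from edgeR on this point.

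The other genes of the pathway were read from longer lists in the same fit. Of 44 tested further mitosis genes, 13 were lower (29.5%) and 1 higher in chow KO than in chow flox, and 18 were higher (40.9%) and 3 lower (6.82%) in HFSC KO than in chow KO. Foxm1, a transcription factor of mitosis genes, had log2 fold changes of -2.42 ± 0.53 in the comparison on chow and 2.53 ± 0.53 in the diet comparison in KO. The cytokinesis kinase Cit (-1.66) and the separase gene Espl1 (-2.62) were lower in chow KO, and the motor Kif22 (2.37) and the condensin subunit Ncaph (1.40) were higher in HFSC KO. Of 38 further replication genes, 3 were lower in chow KO (7.89%, under the 10.1% of all tested genes), namely the methyltransferase Dnmt1 (-0.70), Mcm10 (-1.70) and the ligase Lig1 (-1.12). In HFSC KO against chow KO 4 of the 38 were higher (10.5%) and 5 lower (13.2%), beside 14.9% and 10.6% of all tested genes, among the lower ones the clamp loader Rfc1 (-0.67), Orc5 (-0.57) and the chromatin assembly factor Chaf1a (-0.70). The shares of the further replication genes were thus near those of all tested genes.

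Of 15 other G1 cyclins, kinases, pocket proteins and E2F factors, 6 were lower in chow KO than in chow flox, with Cdk6 at -1.77, Ccnd1 at -1.40 and Ccnd2 at -1.21. In HFSC KO against chow KO 7 were higher (46.7%) and 1 lower (6.67%), beside 14.9% and 10.6% of all tested genes. The repressor E2f7 was at 2.77, Cdk6 at 1.55 and Ccnd3 at 0.90. Of 7 cyclin-dependent kinase inhibitors, Cdkn2a (-3.60) and Cdkn1c (-0.91) were lower in chow KO, a share of 28.6%. In the diet comparison in KO Cdkn2a (3.39), Cdkn1a (2.45) and Cdkn1c (1.46) were higher and Cdkn2c (-0.85) was lower, shares of 42.9% and 14.3%. These proteins hold back cell division, and Cdkn2a and Cdkn1c had the same signs as most mitosis genes. The 7 as a list were divided: 4 were negative and 3 positive on chow. In the diet comparison in KO 3 were negative and 4 positive, with a median log2 fold change of 0.02. Cdkn1a, p21, had 78.5 to 142 CPM in HFSC KO and 55.9 to 130 CPM in HFSC flox, against 8.1 to 32.5 CPM in chow KO and 19.8 to 43.7 CPM in chow flox. Its difference on chow did not pass (-0.95; edgeR, adjusted p = 0.179). None of the genes of these 4 lists passed in KO against flox on HFSC, in HFSC against chow in flox or in the interaction (edgeR).

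Promoter windows show how the replication and mitosis genes differ in sequence. For 36 of the 43 genes the RefSeq promoter table (GRCm38.p6) held a window of 300 bases, 250 before and 50 after the gene's start. No window was matched for Mcm4, Gins2, Ccne2, Ccna2, Aurkb, Kif20a and Tpx2. Each window was searched on both strands, with overlapping matches all counted. The E2F core was the letters TTCCCGC, also accepted with the variant spelling TTCGCGC, with the variant spelling TTGCCGC and with the variant spelling TTGGCGC. The CHR core was TTTGAA, also accepted with the variant spelling TTCGAA, and the NF-Y box was the letters CCAAT. Windows of 4 genes are shown: Cdk1 and Top2a with large differences in both comparisons, Mcm6 as a replication gene that passed in both, and Aurka as a mitosis gene that ran the other way, all chosen after their values were seen. They read 5′ to 3′ on the gene's strand, which is the minus strand for all 4, with every match of either strand in capitals. The windows are chr10:69352863-69353162 for Cdk1, chr11:99024140-99024439 for Top2a, chr1:128359656-128359955 for Mcm6 and chr2:172370521-172370820 for Aurka.
Cdk1: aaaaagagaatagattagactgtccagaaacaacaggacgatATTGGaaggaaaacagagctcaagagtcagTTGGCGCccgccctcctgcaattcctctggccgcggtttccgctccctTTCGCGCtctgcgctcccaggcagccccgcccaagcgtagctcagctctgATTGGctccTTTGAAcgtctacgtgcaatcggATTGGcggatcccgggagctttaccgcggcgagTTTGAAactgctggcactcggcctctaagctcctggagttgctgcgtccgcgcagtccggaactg
Top2a: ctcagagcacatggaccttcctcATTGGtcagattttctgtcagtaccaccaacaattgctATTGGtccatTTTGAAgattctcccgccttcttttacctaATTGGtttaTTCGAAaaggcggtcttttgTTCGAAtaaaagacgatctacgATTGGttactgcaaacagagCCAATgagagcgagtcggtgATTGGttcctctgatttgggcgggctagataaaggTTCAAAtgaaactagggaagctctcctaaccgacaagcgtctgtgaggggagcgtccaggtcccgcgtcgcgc
Mcm6: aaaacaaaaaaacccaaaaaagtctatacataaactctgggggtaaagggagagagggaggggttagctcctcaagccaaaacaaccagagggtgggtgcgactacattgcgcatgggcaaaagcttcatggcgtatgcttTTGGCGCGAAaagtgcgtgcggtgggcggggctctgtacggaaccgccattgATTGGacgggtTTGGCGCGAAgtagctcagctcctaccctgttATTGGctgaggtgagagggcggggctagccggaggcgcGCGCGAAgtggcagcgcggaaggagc
Aurka: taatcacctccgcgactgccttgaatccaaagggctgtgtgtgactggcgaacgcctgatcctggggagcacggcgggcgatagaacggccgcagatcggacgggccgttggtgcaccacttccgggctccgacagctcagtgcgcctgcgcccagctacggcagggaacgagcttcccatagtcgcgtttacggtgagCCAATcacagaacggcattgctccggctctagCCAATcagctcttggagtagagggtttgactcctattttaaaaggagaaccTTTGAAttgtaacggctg

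The Cdk1 window held 2 E2F cores, 2 CHR cores and 3 NF-Y boxes. Top2a had 4 CHR cores and 6 NF-Y boxes with no E2F core, and Mcm6 had 5 E2F cores and 2 NF-Y boxes with no CHR core. The Aurka window, with 1 CHR core and 2 NF-Y boxes, held the same 2 kinds of match as Top2a. Among the replication genes 10 of 15 windows (66.67%) held an E2F core, and among the mitosis genes 4 of 21 (19.05%), beside 9.69% of all 27025 promoter windows. A CHR core was found in 2 of 15 replication windows (13.33%) and 17 of 21 mitosis windows (80.95%), beside 19.44% of all. NF-Y boxes were in 9 of 15 (60.0%), 18 of 21 (85.71%) and 37.92% of these sets. A CHR core together with an NF-Y box occurred in 2 of 15 replication and 16 of 21 mitosis windows, beside 7.7% of all promoters. In Ccnb1, Ect2 and Mcm7 an E2F core and an NF-Y box shared bases. A match is a run of letters and not a measured binding site, and these shares were not tested.

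**Figure D5:**
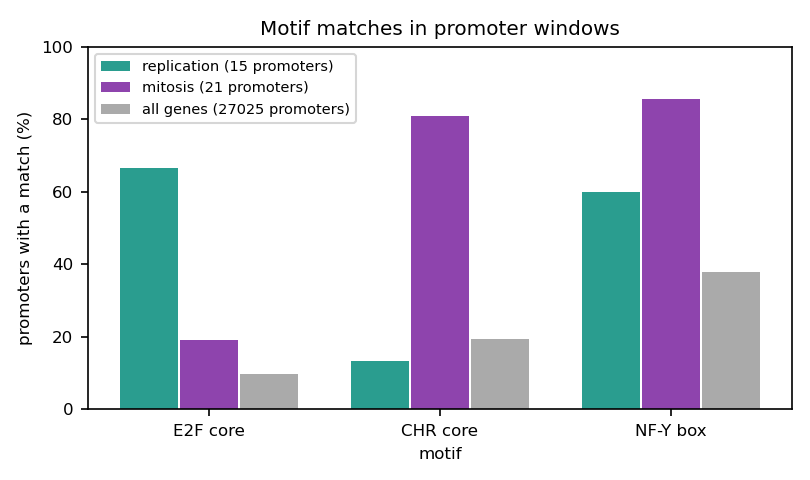
Percent of promoter windows (vertical axis) with at least 1 match to each motif, for 15 replication genes, 21 mitosis genes and all 27025 windows. E2F cores are most frequent in the replication genes (66.67%) and CHR cores in the mitosis genes (80.95%).

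The locus deleted in the knockout encodes miR-181a and miR-181b, which share a seed. In RefSeq the same mature sequences are also annotated at another locus, Mir181a-1 with Mir181b-1, and the level of the mature forms was not measured here. The sequences at the deleted locus (GRCm38.p6) are shown with the seed, bases 2 to 8, in capitals.
miR-181a-5p: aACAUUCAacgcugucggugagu
miR-181b-5p: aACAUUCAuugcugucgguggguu

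A match to this seed was present in the longest annotated 3′ untranslated region of 7 of the 43 genes (16.28%), beside 18.53% of 13905 tested genes with such a region. The 7 were Aurkb, Ccna2, Ccnb1, Cenpf, Hells, Nusap1 and Pcna, and Ccna2 alone had the full 8-base match. Of these 7, Ccnb1 and Cenpf were lower in chow KO than in chow flox, beside 18 of all 43. None of the 43 was higher. Cdk1, Top2a and Mki67, with large differences on chow, had no match, like most of the 43. Targeting by the miRNAs was not tested.

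Reads of some genes may be shared with others, since the strand setting of the counting is not given in the sources used here. Exons of 9 of the 43 genes overlap a gene on the opposite strand in GENCODE M21. The longest overlaps were 2758 bases between Gins2 and Gse1, 1271 between Kif20a and Cdc23 and 911 between Prc1 and Rccd1. Ccna2, Ccne2, Cdc20, Mcm7, Nusap1 and Plk1 have shorter ones, of 53 to 609 bases. Processed pseudogenes of Ccnb1, Ccnb2, Pcna and Tyms are annotated, so reads of these genes are uncertain where copies are near-identical. Top2a shares 122 bases with a small nucleolar RNA gene on its own strand, and Mcm7 holds Mir25 and Mir93. Of the genes with an opposite-strand overlap or a pseudogene, Cdc20 and Ccnb1 were among the 18 lower in chow KO.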

How the data were processed

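Raw read counts per Ensembl gene, as deposited by the authors, were available for 13 libraries of mouse skeletal muscle. Trimmomatic 0.36, STAR 2.5.2b, featureCounts and Subread 1.5.2 are listed per the submitters' processing notes, which also name GRCm38. Which annotation was used, and how strand and multiply aligned reads were treated, is not given in the sources used here. Per the labels' protocols, RNA was selected by polyA. Groups and replicate numbers come from the labels.

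Symbols were found for 48970 of 49315 identifiers, and GENCODE M21 (GRCm38) gave coordinates for 49056. All 13 libraries entered 1 fit of 4 group means in edgeR 4.0.16 (R 4.3.3; robust quasi-likelihood F test, TMM, filterByExpr). Benjamini-Hochberg adjustment covered the 16496 genes kept, at a threshold of 0.05. The SE of a log2 fold change is its size divided by the root of F. CPM use TMM-scaled library sizes, and list levels use log2 CPM with a prior count of 2. As alternatives, RLE size factors, plain library totals, no low-count filter, DESeq2 1.42.0, voom of limma 3.58.1 with sample quality weights, only the groups compared, the replicate number as a block, and omission of each library were run. After omission, a smaller group is assumed to vary like the others.

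The 43 genes and all lists were chosen with earlier results of these data known. Up to 8 called genes per list with the smallest p in each comparison were followed through the alternatives. Where fewer than 3 were called, the 3 with the smallest p were followed. Some of these are given above by their log2 fold change only. Up to 3 called genes of each further list were picked for naming. Replicates differed beyond sampling noise (chi-square over its degrees of freedom of 10.5 to 193, on genes holding 20 or more counts). Each was counted as separate, although such spread does not show that the libraries came from separate animals. The test was checked on simulated data.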

Additional observations from a re-analysis of the deposited data

How the results depend on the processing

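Of the 43 cell cycle and replication genes, 18 passed for KO against flox on chow. The count was 38 with limma voom (4 higher, 34 lower), which called 59.9% of all tested genes. It was 0 of 30 tested with only the chow groups in the fit (2 of all genes called), 0 with the replicate block (0 of all genes), and 0 to 33 with 1 library left out. For HFSC against chow in KO, 25 passed, and the count was 13 with the replicate block (14.4% of all genes) and 10 to 26 with 1 library left out. For HFSC against chow in flox, 0 passed, and limma voom called 6 (4 higher, 2 lower) with 25.1% of all genes. Leaving out 1 library gave 0 of the 43 in each of the 13 fits. The share of all genes called was 8.58% without chow flox replicate 4 and 0.0890% to 0.449% in the other fits. For KO against flox on HFSC the count was 0 under each alternative run, with at most 0.903% of all genes called (DESeq2). For the interaction 0 passed, and the count was 12 with DESeq2 (11.7% of all genes), 26 with limma voom (42.8%) and 0 to 27 with 1 library left out; a fit with only the groups compared was not run there, since it needs all 4. The mean log2 CPM of the mitosis genes in chow KO, -1.28, was -1.43 with library totals, -1.48 with a prior count of 0.5, and -1.43 to -1.19 with 1 library left out. The log2 fold changes of the 35 gene and comparison pairs followed through the alternatives kept their sign under each that gave a value. With only the groups compared, 27 of the 35 had a value. With library totals, the all-gene median was -0.35 for KO against flox on chow and 0.21 for HFSC against chow in KO. Over 16 same-numbered pairs of different groups the correlation of deviations from the group means ran from -0.34 to 0.11, with 1 above 0.1. Over 47 different-numbered pairs it ran from -0.41 to 0.39, with 13 above 0.1. Whether the replicate numbers pair the libraries cannot be told from these correlations. The cause of the changes between settings was not tested. In chow KO, 16 of the 43 genes had fewer than 30 reads in all, which limits their fold changes.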
